A study of Mus musculus with 2 samples.

Results

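The 40 genes described here encode nuclear hormone receptors, a family of transcription factors, and were measured in mouse adrenal gland. They were taken by symbol from the gene tables of both libraries, with symbols joined by gene identifier to the names in the second transcript tables, and all 40 were found among 55536 annotated genes. The NR4A, NR5A and NR0B receptors were not among them. The samples were 2 total RNA-seq libraries of adrenal gland from female B6CASTF1/J mice aged 2 months, first-generation hybrids of the C57BL/6J and CAST/EiJ strains, with no treatment and no other group named in the labels. Total RNA-seq reads all RNA left after ribosomal RNA is reduced, not messenger RNA alone. Both libraries started from 300 ng of RNA and carried ERCC spike-ins, which are synthetic RNAs added in known amounts. The labels number the libraries as biological replicates 1 and 2, called library 1 and library 2 here, but they disagree on whether the animals were different, so differences between the libraries may be partly technical.

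Nuclear receptors bind DNA through a domain of 2 zinc fingers and, in many members, bind a small fat-soluble molecule through a second domain. Steroid receptors such as the glucocorticoid receptor are held by chaperones in the cytoplasm until hormone arrives. Thyroid hormone, retinoic acid, vitamin D and lipid receptors sit on DNA with RXR as a partner, repress through corepressors, and switch to coactivators such as PGC-1 alpha when ligand binds. REV-ERB and ROR receptors act on the same sites in the circadian clock, and orphan receptors such as the COUP-TF and ERR groups work without a known hormone. In the adrenal cortex, NR5A1 sets steroid cell identity. The members described here include receptors for circulating hormones and lipids, parts of the circadian clock and orphan receptors.

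The P box is a short stretch of the first zinc finger that reads the core of the DNA site. Its coding sequence is shown because the members can be grouped by it. The groups are of P box residues and do not stand for classes of DNA site. Reading the GENCODE M21 coding sequences gave 8 different P boxes among the 40 members. The sequences below run 5′ to 3′ from the codon of the cysteine before the P box, and capitals mark the 5 codons of the P box.
Thra: tgtGAGGGCTGCAAGGGC
Pparg: tgtGAAGGATGCAAGGGT
Esrra: tgtGAGGCCTGCAAAGCC
Nr2f2: tgcGAGGGCTGCAAGAGC
Nr3c2: tgcGGCAGCTGCAAAGTC
Esr1: tgcGAAGGCTGCAAGGCT
Hnf4a: tgtGACGGCTGCAAGGGG
The P box of Thra and Pparg was shared by 25 members, written with 19 different codings, and these 25 held 78.1% of the members' summed TPM in library 1 and 78.3% in library 2. They are the thyroid hormone, retinoid, vitamin D, lipid, xenobiotic and clock receptors with RXR, Nr2c1, Nr2c2 and Nr6a1. The COUP-TF form of Nr2f2, shared by Nr2f1 and Nr2f6, held 12.8% and 12.9%. The ERR form of Esrra held 3.66% and 3.24%, the form shared by Nr3c2, Nr3c1 and Pgr held 3.10% and 3.09%, and the estrogen receptor form of Esr1 and Esr2 held 2.05% and 2.34%. Hnf4a and Hnf4g shared a form that held 0.271% and 0.0822%, and Nr2e1 and Nr2e3 had a P box each. TPM is a level corrected for transcript length and library size, and the order of these shares was the same in both libraries.

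The gene tables held 34517566 and 36234838 expected counts in libraries 1 and 2, where an expected count is an estimated number of read pairs, and 13254 and 13316 genes reached 1 TPM. A chi-square test over 17308 genes gave 77.3 per degree of freedom, so the files do not hold the same library. All 7 adrenal cortex markers exceeded 80 TPM in both libraries, with sums of 15866 and 18288 TPM, and the 5 medulla markers summed to 1814 and 1481 TPM. Markers of tissue around the gland were also present. Brown adipocyte markers summed to 651 and 1261 TPM, white adipocyte markers to 1799 and 2027, liver markers to 261 and 209, and kidney markers to 20.2 and 0.480. TPM has a fixed sum, and 2 copies of 7SL RNA took 33.1% of it in library 1 and 20.4% in library 2, so TPM is read here for levels within a library and scaled counts are read for ratios between libraries. In RNA from whole tissue, fewer cells of a type and less RNA per cell cannot be told apart.

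Of the 40 members, 29 reached 1 TPM in both libraries, and the members summed to 398 and 474 TPM, a mean of 436 ± 53.8 (SD, n = 2). They took 0.123% and 0.119% of the expected counts. Nuclear receptors were thus of middling abundance: the highest member of each library ranked 1497 and 1431 among nuclear protein-coding genes by TPM. For comparison, Nr5a1, the adrenal cell identity receptor that is not a member, had 250 and 265 TPM, above every member in both libraries. Grouped by ligand and role, the thyroid, retinoid and vitamin D receptors with RXR summed to 115 and 139 TPM, with 9 of 9 members at 1 TPM or more in both libraries. The lipid and xenobiotic sensors summed to 90.0 and 122 TPM with 6 of 9, the clock receptors to 90.3 and 92.6 with 3 of 4, and the orphan receptors with HNF4 to 81.8 and 94.9 with 8 of 13. Steroid receptors were the lowest group, at 20.5 and 25.8 TPM with 3 of 5.

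The members of highest mean TPM were Nr1d1, Thrb, Nr1h2, Rora, Nr2f2 and Thra, from all groups but the steroid receptors. Nr1d1, the clock repressor REV-ERB alpha, had 39.4 and 46.9 TPM in libraries 1 and 2. Thrb, thyroid hormone receptor beta, had 33.3 and 45.6 TPM, and Nr1h2, the oxysterol receptor LXR beta, had 33.2 and 43.4 TPM. The next were Rora, a clock activator, at 40.3 and 32.6 TPM, Nr2f2, the orphan receptor COUP-TFII, at 27.6 and 37.8 TPM, and Thra, thyroid hormone receptor alpha, at 29.2 and 29.9 TPM. The ranges of neighbours in this order overlapped from Nr1d1 down to Thra, so no neighbouring pair is separated by these libraries. Some members further apart were separated in these values. The range of Nr1d1 lay above those of Nr2f2 and Thra, and those of Thrb, Nr1h2 and Rora lay above that of Thra. The order changed in the second quantification, where Thrb had the highest mean, 89.5 TPM. A fragment of 375 bases held 31.5% and 43.2% of that Thrb TPM in libraries 1 and 2. There Nr1d1, at 66.7 and 67.5 TPM, overlapped Nr2f2, at 66.2 and 69.2. Rora, at 70.2 and 46.6 TPM, overlapped Thra, at 60.5 and 55.1. A gap followed Thra, and no member below it reached its level of either library except Pparg, at 29.8 TPM in library 2. The next set ran from Ppard, at 25.0 and 20.9 TPM, through Pparg and Rxra to Nr2f6, at 18.01 and 17.25 TPM, again with neighbours overlapping. Further gaps between neighbours followed Nr2f6, Rxrb, Nr1h3, Rarg, Vdr, Rxrg and Esrrb, but other members span some of them. The ranges of Pparg and Rxra span the gap after Nr2f6, and that of Pparg also the gap after Rxrb. The range of Ppara, 4.85 to 12.89 TPM, spans the gaps after Nr1h3 and Rarg. That of Nr1h4, 4.71 to 7.04 TPM, spans the gap after Rarg.

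**Figure D1:**
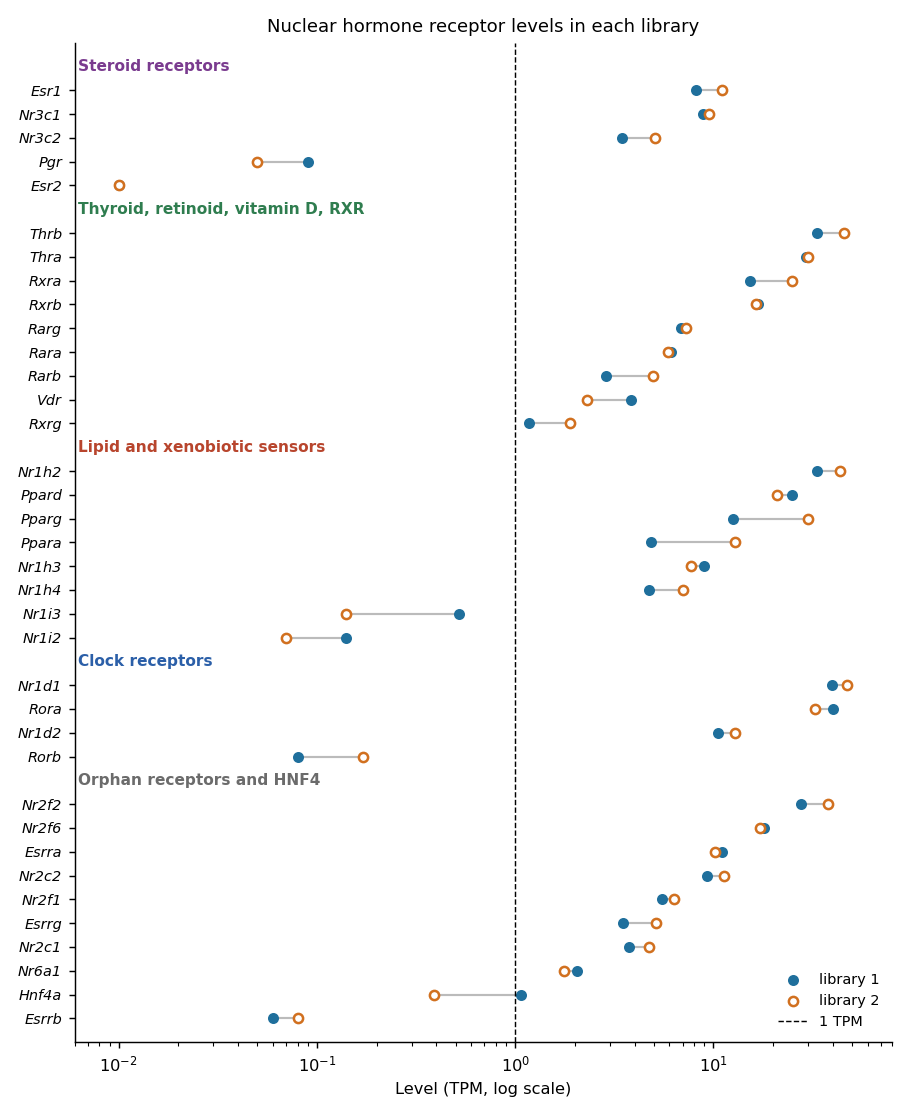
Level of each receptor in library 1 (filled) and library 2 (open) in TPM on a log axis, grouped by role, with a dashed line at 1 TPM. The 36 members above 0 TPM in both libraries are drawn; the thyroid, retinoid, vitamin D and RXR group lies wholly above 1 TPM, while each other group has members below it.

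Between the libraries, most members differed little. Of the 28 members averaging 100 or more expected counts, 2 were more than 1.5-fold higher in library 2 on counts scaled by the trimmed mean of M-values (TMM), and 0 were more than 1.5-fold higher in library 1. Among all 12171 genes with that mean count, 2.43% passed the same fold towards library 2, 3.25% towards library 1 and 5.68% in either direction. The count of 2 among 28 is therefore near the share of all genes, and nothing is read from it about the family. The median log2 ratio of library 2 over library 1 was 0.07 for the 28 members and -0.01 for all 12171 genes, and 17 members were higher in library 2 and 11 in library 1. These are descriptions with no test: with 2 libraries of 1 group, an exact two-sided sign test cannot go below p = 0.5. Intervals given below are 95% Clopper-Pearson intervals of counting error only, and they leave out variation between animals and between library preparations. They treat read pairs as independent. Read pairs without molecular identifiers are not independent molecules, so the intervals may be too narrow even for counting error.

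**Figure D2:**
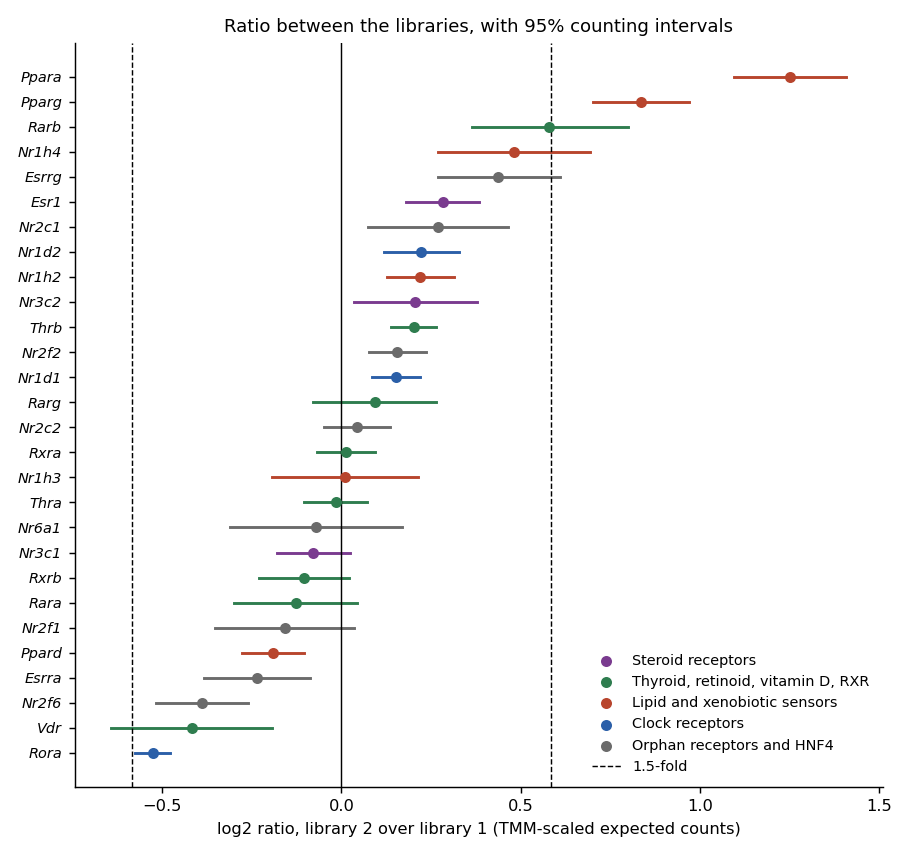
Log2 ratio of library 2 over library 1 (TMM-scaled expected counts) for the 28 members averaging 100 or more counts; bars are 95% counting intervals and dashed lines mark 1.5-fold. Ppara and Pparg lie beyond the line towards library 2, Rarb lies just inside it at 1.49-fold, and Rora lies closest to the line towards library 1.

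The members past 1.5-fold were a pair of fatty acid receptors, Ppara and Pparg. Ppara (chromosome 15, 85734983 to 85802819 on mm10) encodes PPAR alpha, which turns on fatty acid oxidation in oxidative tissues. Its expected count was 480 in library 1 and 1155 in library 2, or 4.85 and 12.9 TPM, a 2.38-fold higher scaled count in library 2 with an interval of 2.14 to 2.65. Pparg (chromosome 6, 115360951 to 115490399) encodes PPAR gamma, the driver of fat cell formation. Its expected count was 698 and 1259, or 12.6 and 29.8 TPM, a 1.78-fold higher scaled count in library 2 with an interval of 1.63 to 1.96. Ppard, the widely expressed paralog PPAR delta, went the other way, with 2306 and 2041 counts, 25.0 and 20.9 TPM and a 1.14-fold higher scaled count in library 1 (interval 1.08 to 1.21). By TPM the order of Ppard and Pparg differed between the libraries, while Ppard had more counts than Pparg in both. The mean transcript length assigned to Pparg was 1689 bases in library 1 and 1376 in library 2, which enters its TPM but not its counts. Ppard was 1.99-fold above Pparg by TPM in library 1 and 0.701 times Pparg in library 2, and it exceeded Ppara 5.15-fold in library 1 and 1.62-fold in library 2.

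Brown adipocyte markers moved with Ppara and Pparg, and their part in these ratios was not tested. All 5 brown adipocyte markers were higher in library 2, 4 of them past 1.5-fold, with a median log2 ratio of 0.91. Ucp1, which lets brown fat make heat, had 10561 and 21765 counts, 2.04-fold more in library 2, and none of the 5 was at 0 in either library. The 6 white adipocyte markers had a median log2 ratio of 0.11, none was past 1.5-fold towards library 2, and Lep, the gene of the fat hormone leptin, was 3.21-fold higher in library 1 at 195 and 61 counts. None of these 6 was at 0 counts in either library. Adrenal cortex markers had a median log2 ratio of 0.15 and medulla markers of -0.33.

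**Figure D3:**
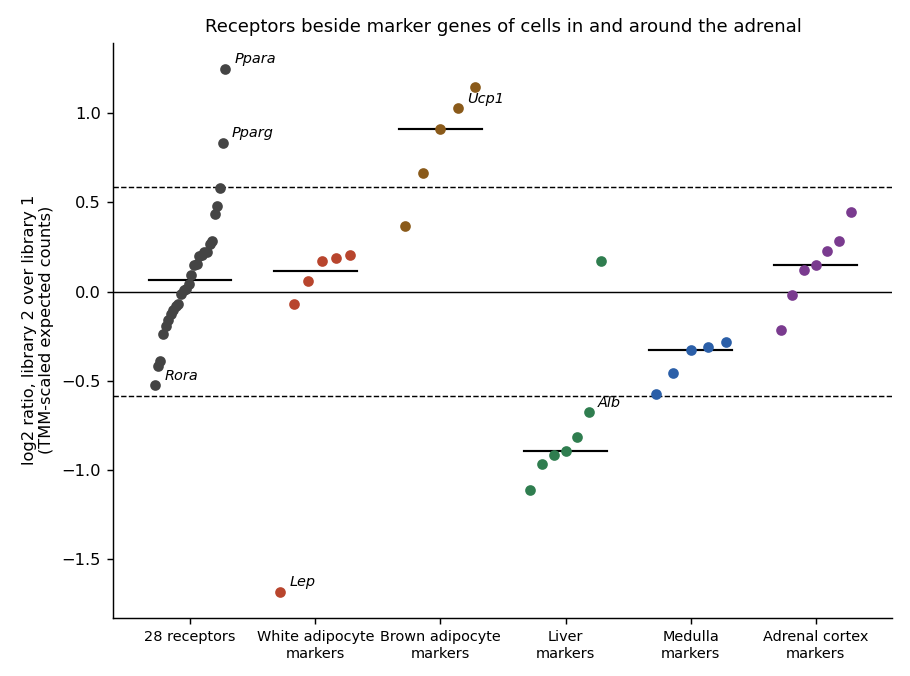
Log2 ratio of library 2 over library 1 for the 28 receptors and for marker genes of white and brown adipocytes, liver, medulla and adrenal cortex; each point is a gene, thick lines are medians and dashed lines mark 1.5-fold. Brown adipocyte markers lie above 0 with a median of 0.91, as do Ppara and Pparg, and 6 of 7 liver markers lie below the lower dashed line.

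PPAR target genes were mostly higher in library 2, few of them past the fold. Of 15 PPAR alpha and delta targets with at least 100 mean counts, 3 were past 1.5-fold towards library 2 and 0 towards library 1, with 13 higher in library 2 and a median log2 ratio of 0.19. Fabp3, a fatty acid carrier of heart and brown fat, was 2.03-fold higher in library 2 at 206 and 424 counts. Acadm, the medium-chain fatty acid dehydrogenase and the list's most abundant gene, differed 1.04-fold, at 243 and 247 TPM. Of 12 PPAR gamma targets and partners, 0 were past 1.5-fold in either direction, 11 were higher in library 2, and the median log2 ratio was 0.28. Fabp4, Adipoq, Plin1 and Retn of this list are also white adipocyte markers above, so these lists are not separate observations. Fabp4, the fatty acid carrier of fat cells, had 679 and 838 TPM and was 1.15-fold higher in library 2. With total-count scaling 10 of the 15 PPAR alpha and delta targets were higher in library 2. Of the 12 PPAR gamma targets, 5 passed 1.5-fold with ERCC scaling and 4 with deposited TPM. In those settings the median over all genes was 0.19 and 0.11, and 7.95% and 9.26% of all genes passed in either direction.

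Cofactors, which receptors recruit to activate or repress genes, were measured as a list of 24, all at 1 TPM or more in both libraries. Of these, 3 were past 1.5-fold towards library 2 and 0 towards library 1, with a median log2 ratio of 0.25. The largest ratio was that of Ppargc1a, the gene of PGC-1 alpha, a coactivator induced by cold in brown fat, with 227 and 1039 counts, 1.88 and 9.79 TPM and a 4.52-fold higher scaled count in library 2. Its paralog Ppargc1b was 2.30-fold higher at 296 and 689 counts, and the acetyltransferase gene Crebbp was 1.53-fold higher. With total counts and in the second quantification 2 cofactors passed, in place of 3. Ncor1, the gene of a corepressor, had 62.4 and 93.1 TPM, above every member of the receptor set in the same library, and was 1.25-fold higher in library 2.

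The second transcript table showed the same direction for the PPAR genes, at 2.27-fold for Ppara and 1.68-fold for Pparg. Ppara read through a single product, since its 3 coding transcripts of 468 codons held 92.1% and 90.6% of its TPM. Pparg is known for 2 products that differ at their start, a long form of fat cells and a shorter form found more widely. The bases that belong to the coding sequence of the longer form alone, 30 codons in front of the 475 shared ones, are shown here because they are what tells the forms apart. Capitals mark these bases.
Pparg long form, own coding bases: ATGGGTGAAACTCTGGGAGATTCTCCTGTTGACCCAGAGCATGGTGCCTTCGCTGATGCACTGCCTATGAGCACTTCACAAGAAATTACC
In the first quantification the longer form held 46.3% and 35.8% of Pparg TPM, and the forms of 475 codons 43.5% and 33.7%. In the second quantification the longer form was near 0%, with 6.86e-07% and 5.08e-04%, and the forms of 475 codons held 70.5% and 57.2%. The share of the long form thus depended on the quantification and cannot be given from these tables.

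LXR receptors, which sense oxysterols and raise cholesterol efflux, differed little between the libraries. Nr1h2 (LXR beta) had 1756 and 2068 counts, 1.16-fold higher in library 2 with an interval of 1.09 to 1.24. Nr1h3 (LXR alpha) had 397 and 404 counts, a ratio of 1.01 with an interval of 0.874 to 1.16, and 8.98 and 7.67 TPM. LXR beta was thus the higher paralog, 3.70-fold and 5.66-fold above LXR alpha by TPM. Of 10 LXR targets with at least 100 mean counts, which include Nr1h3 itself, 0 were past 1.5-fold in either direction. Of these, 2 passed with deposited TPM, and the 10 targets had a median log2 ratio of 0.12 on scaled counts. Among them Scd1, a fatty acid desaturase, had 620 and 1169 TPM and was 1.29-fold higher in library 2 on scaled counts, Apoe, a lipid carrier protein, had 381 and 388 TPM, and Abca1, a cholesterol exporter, had 53.6 and 74.0 TPM.

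Nr1h4, the bile acid receptor FXR, was expressed at 4.71 and 7.04 TPM, or 314 and 443 counts, 1.39-fold higher in library 2 with an interval of 1.21 to 1.62. It had 1 leading product, a transcript of 474 codons with 86.8% and 83.4% of its TPM, and 88.4% and 85.0% in the second quantification. The other bile acid and drug sensors were scarce. Nr1i3, the receptor CAR, had 33 and 12 counts, 2.71-fold higher in library 1 with an interval of 1.399 to 5.91, and Nr1i2, the receptor PXR, had 12 and 6 counts, 1.94-fold higher in library 1 with an interval of 0.702 to 6.57. Nr1h5, FXR beta, had 1 and 0 counts. Exons of Tomm40l on the other strand cover 74.9% of the exon bases of Nr1i3, and Tomm40l had 824 and 720 counts.

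Thyroid hormone receptors were among the highest members. Thrb (chromosome 14, 17660261 to 18038090) had 3855 and 4480 counts, 1.15-fold higher in library 2 with an interval of 1.101 to 1.2005. Thra (chromosome 11, 98740638 to 98769006) had 2072 and 2071 counts, a ratio of 0.989 with an interval of 0.930 to 1.05. By gene totals Thrb exceeded Thra 1.14-fold and 1.53-fold by TPM, and 1.24-fold and 1.88-fold in the second quantification. Incomplete transcripts enter these totals. For Thrb, a transcript of 426 bases held 5.48 and 11.5 TPM, and another of 375 bases 23.7 and 44.9 TPM in the second quantification. For Thra, a transcript of 1240 bases held 4.51 and 1.47 TPM, and another of 535 bases 10.7 and 5.61 TPM in the second quantification. The order without such transcripts was not tested. Of 8 thyroid hormone targets and handling genes with at least 100 mean counts, 1 was past 1.5-fold towards library 2 and 0 towards library 1. Their median log2 ratio was -0.03, beside -0.01 for all genes. It was 0.18 with ERCC scaling and 0.08 with deposited TPM, beside 0.19 and 0.11 for all genes. The gene past the fold was Dio2, the deiodinase that makes active thyroid hormone and is also a brown fat gene. Dio2 had 1323 and 3081 counts, 2.30-fold higher in library 2. Me1, the malic enzyme, had 439 and 422 TPM and Thrsp, a lipogenic gene, 320 and 395 TPM.

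Thra makes products of different kinds, which its coding sequences show. A product of 410 codons binds thyroid hormone, and a product of 492 codons ends differently and is known not to bind it. The coding sequences are identical for 370 codons and part at an exon end, and the bases around that point are shown because each form's share rests on what follows them. Lower case marks shared bases and capitals mark the bases after the point where the forms part.
Thra, 492 codons: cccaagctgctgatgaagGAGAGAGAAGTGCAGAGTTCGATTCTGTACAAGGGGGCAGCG
Thra, 410 codons: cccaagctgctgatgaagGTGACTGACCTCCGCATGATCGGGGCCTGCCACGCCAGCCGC
The 492-codon transcript held 50.6% and 53.5% of Thra TPM, against 29.1% and 34.8% for the 410-codon transcript. In the second quantification the shares were 46.3% and 37.7% against 24.5% and 27.1%. The product known not to bind hormone was thus the larger in each of the 4 tables, at 14.79 and 15.99 TPM against 8.51 and 10.4 TPM in the first quantification.

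The last exon of the 492-codon form lies over the end of Nr1d1, which is transcribed from the other strand (chromosome 11, 98767932 to 98775333). The annotated exons share 263 bases, 10.7% of the 492-codon transcript and 8.55% of the exon bases of Nr1d1, and the 410-codon transcript shares 0. The labels name a directional kit, which keeps strand, but the strand setting of the counting was not given in the sources used here. Without strand, reads lying wholly within the shared bases would fit both genes. Both genes had whole-number counts within 0.005 in both libraries.

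**Figure D4:**
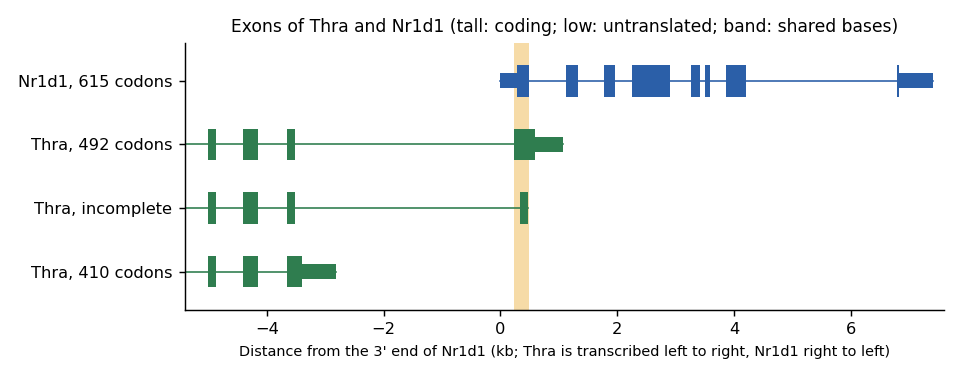
Exons of Nr1d1 and of 3 Thra transcripts by distance in kb from the 3′ end of Nr1d1; tall boxes are coding, low boxes untranslated, lines introns, and the band marks the bases on which both genes have exons. The 492-codon Thra transcript ends inside the band and beyond it, and the 410-codon transcript ends before it; exons further left are not drawn.

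Retinoic acid receptors were lower than the thyroid hormone receptors. Rarg, which is prominent in skin and skeleton, had 6.84 and 7.29 TPM, Rara, the broadly expressed form, 6.09 and 5.90 TPM, and Rarb, itself a retinoic acid target, 2.87 and 4.93 TPM. Rarb (chromosome 14, 16430839 to 16819156) was the member just short of 1.5-fold, with 289 and 437 counts, 1.49-fold higher in library 2 and an interval of 1.29 to 1.74. It passed 1.5-fold with DESeq2 size factors, at 1.51-fold. Exons of Top2b on the other strand cover 38.4% of Rarb exon bases together with those of Gm48162, and Top2b had 3846 and 3368 counts, 1.15-fold higher in library 1. Rara and Rarg differed less, with 587 and 543 counts for Rara and 540 and 582 for Rarg.

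Among 6 retinoic acid targets with at least 100 mean counts, 1 was past 1.5-fold towards library 2 and 0 towards library 1, with a median log2 ratio of 0.30, and 2 passed with DESeq2 size factors, ERCC scaling or deposited TPM. In TMM-scaled counts it was Cyp26b1, an enzyme that breaks down retinoic acid, with 363 and 1414 counts, 2.42 and 9.93 TPM and a 3.85-fold higher scaled count in library 2. Rarb is in that list and is its other gene above 1.4-fold. The Rarb promoter is shown because it carries the textbook arrangement of a retinoic acid response element. Of members with a promoter in the RefSeq table, Rarb alone had a direct repeat of 2 receptor hexamers with 5 bases between. The search covered both strands in the 250 bases before each start. The hexamers were AGGTCA and its common forms, namely GGGTCA as well as AGTTCA and also GGTTCA, in any pairing and in the same orientation. Such a repeat occurred in 29 of 32851 promoters, 0.0883%.
Rarb promoter, chr14:16575483-16575559 of GRCm38.p6, minus strand: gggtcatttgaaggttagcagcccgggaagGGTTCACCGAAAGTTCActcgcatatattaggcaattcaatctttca
Capitals mark the repeat with its spacer, 53 to 37 bases before the start. The leading Rarb transcript, of 448 codons, had 90.9% and 83.8% of Rarb TPM in the first quantification. In the second quantification it had 45.7% and 53.6%, and a transcript of 402 codons had 15.7% and 29.7%. A match of letters does not show that a receptor binds at the repeat.

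The RXR genes encode the partner shared by most of the receptors above. Rxra had 2504 and 2554 counts, Rxrb 1072 and 1008, and Rxrg 63 and 96. Ratios of scaled counts were 1.01 with an interval of 0.954 to 1.07 for Rxra, 0.930 with 0.853 to 1.01 for Rxrb, and 1.503 with 1.086 to 2.106 for Rxrg. By TPM Rxrb was 1.09-fold above Rxra in library 1, while Rxra was 1.51-fold above Rxrb in library 2, and Rxrg was below both in each library. The TPM of Rxra, 15.4 and 24.8, lay 1.61-fold apart on nearly equal counts. The mean transcript length assigned to the gene was 4755 bases in library 1 and 3213 in library 2, and a transcript of 628 bases received 0 counts in library 1 and 144 in library 2. Its share of Rxra TPM was 0% and 33.3%, and 0% and 18.3% in the second quantification. Vdr, the vitamin D receptor, also differed more by TPM than by counts, with 383 and 290 counts, 1.33-fold higher in library 1 with an interval of 1.14 to 1.56, and 3.85 and 2.30 TPM, 1.67-fold higher in library 1.

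**Figure D5:**
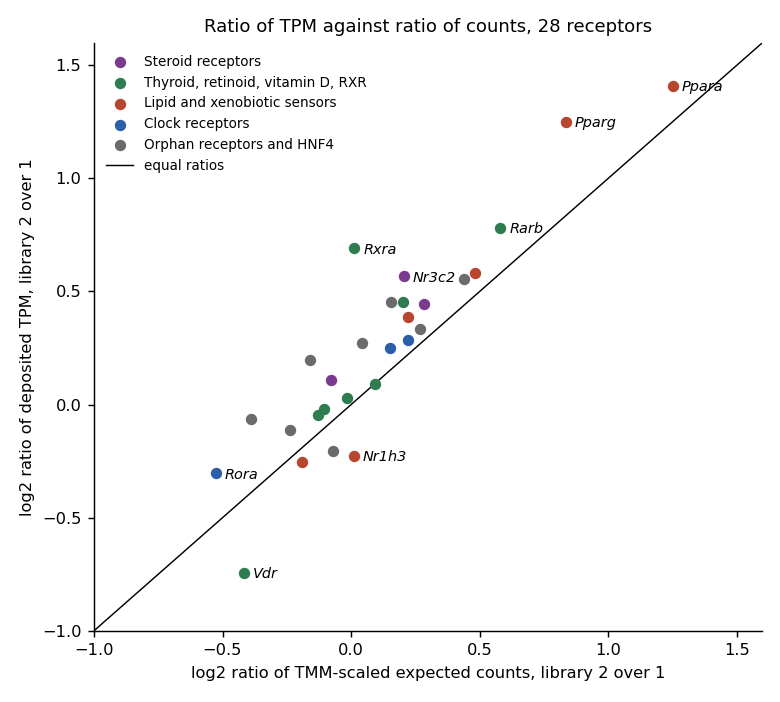
Log2 ratio of deposited TPM against log2 ratio of TMM-scaled expected counts, library 2 over library 1, for the 28 members averaging 100 or more counts; the line marks equal ratios. Most points lie above the line, Rxra stands at 0.01 on the count axis and 0.69 on the TPM axis, and Vdr and Nr1h3 are among those below the line.

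Clock receptors were abundant, and Rora was the member closest to 1.5-fold towards library 1. Nr1d1 had 3453 and 3877 counts and its paralog Nr1d2 (REV-ERB beta) 1374 and 1621, 1.11-fold and 1.17-fold higher in library 2, with intervals of 1.06 to 1.16 and 1.09 to 1.25. Nr1d1 exceeded Nr1d2 3.74-fold and 3.65-fold by TPM, close to the same proportion in both libraries. Rora (chromosome 9, 68653786 to 69388246) had the most counts of any member, 8234 and 5780, and was 1.44-fold higher in library 1 with an interval of 1.39 to 1.49. By TPM it was 40.3 and 32.6. Its main products, of 467 and 523 codons, held 49.3% and 51.6% and 42.01% and 36.8% of its TPM, and shares in the second quantification were within 3 percentage points of these. Rorb, a receptor of brain and retina, had 25 and 41 counts. The activator Rora and the repressors Nr1d1 and Nr1d2 thus lay on opposite sides of equality between the libraries.

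Clock partners and targets were read as a list because REV-ERB and ROR act on them in opposite directions. Of 14 with at least 100 mean counts, 1 was past 1.5-fold towards library 2, Per3 with 165 and 280 counts, and 0 towards library 1, with a median log2 ratio of 0.11. Per3, a period gene, was chosen after its value was seen. With total-count scaling 1 gene of the list also passed towards library 1, and with ERCC scaling 2 passed towards library 2. The most abundant of the list were Bhlhe40, a clock repressor, at 28.3 and 31.8 TPM, Nfil3, a REV-ERB target, at 21.3 and 29.5 TPM, and Per1, at 24.3 and 26.3 TPM.

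Steroid receptors were represented by Esr1, Nr3c1 and Nr3c2, and their levels overlapped in part. Esr1, estrogen receptor alpha, had 8.15 and 11.1 TPM and 1430 and 1758 counts, 1.22-fold higher in library 2 with an interval of 1.13 to 1.30. Nr3c1, the glucocorticoid receptor, had 8.81 and 9.51 TPM and 1573 and 1506 counts, a ratio of 0.947 with an interval of 0.882 to 1.02. The ranges of these genes overlapped, so their order is not set by these libraries. Nr3c2, the mineralocorticoid receptor, had 3.44 and 5.10 TPM and 518 and 604 counts, and lay below both in each library. Nr3c1 exceeded Nr3c2 2.56-fold and 1.86-fold by TPM. Pgr, the progesterone receptor, had 16 and 11 counts, and Esr2, estrogen receptor beta, had 1 in each library.

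Targets and chaperones of the steroid receptors were read as separate lists, with Fkbp5 in both. Of 14 glucocorticoid receptor targets, 0 were past 1.5-fold in either direction, and their median log2 ratio was 0.01, with 8 higher in library 2. That median was -0.05 with total counts and -0.01 in the second quantification, beside -0.07 and -0.05 for all genes. With ERCC scaling 1 gene passed. Glul, the glutamine synthetase, was the most abundant at 259 and 348 TPM, followed by the metallothionein genes Mt1, at 113 and 137 TPM, and Mt2, at 64.3 and 70.0 TPM. The 12 chaperones, which hold steroid receptors ready for hormone, had a median log2 ratio of 0.27, with 2 past 1.5-fold towards library 2 and 0 towards library 1. Those were Hspa8, at 884 and 1454 TPM and 1.56-fold, and Stip1, at 66.1 and 112 TPM and 1.58-fold. With total counts 1 chaperone passed, and with ERCC scaling or deposited TPM 4 did. Hsp90ab1, the constitutive HSP90, had 685 and 989 TPM and was 1.35-fold higher. Of 6 estrogen and progesterone targets, 0 were past 1.5-fold in either direction, with a median log2 ratio of -0.02. With ERCC scaling all 6 were higher in library 2 and 1 passed. Their median was then 0.18, beside 0.19 for all genes. Ccnd1, a cell cycle gene, led that list at 36.05 and 36.35 TPM.

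The COUP-TF group was led by Nr2f2, a receptor of mesenchyme, veins and steroid cells, with 2394 and 2696 counts, 1.11-fold higher in library 2 with an interval of 1.05 to 1.18. Nr2f6 had 18.01 and 17.25 TPM and 1157 and 893 counts, 1.31-fold higher in library 1 with an interval of 1.199 to 1.431. Nr2f1 had 5.51 and 6.32 TPM and 465 and 421 counts. Nr2f2 was 5.004-fold and 5.98-fold above Nr2f1 by TPM, and 1.53-fold and 2.19-fold above Nr2f6. Exons of Ocel1 on the other strand cover 54.4% of Nr2f6 exon bases, and Ocel1 had 338 and 325 counts, a ratio of 0.951.

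The ERR group, orphan receptors that act with PGC-1 on mitochondrial genes, was led by Esrra at 11.02 and 10.18 TPM. Esrra had 804 and 690 counts, 1.18-fold higher in library 1 with an interval of 1.06 to 1.31, and Esrrg had 492 and 674, 1.35-fold higher in library 2 with an interval of 1.205 to 1.525. Esrra stayed above Esrrg by TPM, 3.17-fold and 1.99-fold, and Esrrb, a receptor of stem cells, had 8 and 11 counts. Of 12 ERR targets with at least 100 mean counts, 1 was past 1.5-fold towards library 2, Cycs at 1.73-fold, named after its value was seen, and 0 towards library 1, with a median log2 ratio of 0.11. In the second quantification 0 passed, and with ERCC scaling 3. Esrra is itself in this list, so the list is not separate from the receptor group. Atp5b, the ATP synthase beta subunit, was the most abundant at 791 and 934 TPM. The testicular receptors Nr2c1 and Nr2c2, which compete with other receptors for the same hexamers, had 3.76 and 4.74 and 9.32 and 11.2 TPM, and Nr6a1, a germ cell receptor, had 2.04 and 1.77 TPM.

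Hnf4a, the receptor that sets liver and proximal tubule identity, lay on either side of detection, at 1.07 TPM in library 1 and 0.390 in library 2. Its counts were 123 and 55, 2.25-fold higher in library 1 with an interval of 1.63 to 3.17, and its mean lay under 100 counts. Of 7 liver markers, 6 were past 1.5-fold towards library 1, with a median log2 ratio of -0.90, none was at 0 in either library, and Alb, serum albumin, had 8146 and 5150 counts. Of 7 kidney markers none reached 1 TPM in both libraries, and Kap, Slc34a1, Umod and Slc12a1 were at 0 counts in library 2, against 350 counts of Kap in library 1. The part of these tissues in the Hnf4a, Nr1i3 and Nr1i2 counts was not tested. Of 8 targets of HNF4, FXR, PXR and CAR, 6 were past 1.5-fold towards library 1 and 2 towards library 2, with a median log2 ratio of -0.77, and 3 of the 8 (Apoa1, Ttr and Serpina1a) are also liver markers. With ERCC scaling 4 passed towards library 1, and in the second quantification 5. Cyp3a11, a drug-metabolising enzyme of liver, was 3.88-fold higher in library 1 at 392 and 102 counts, while Nr0b2, a repressor induced by bile acids, was 1.57-fold higher in library 2 at 489 and 775 counts.

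The remaining members were at the edge of detection. Nr2e1, a receptor of neural stem cells, had 0 and 2 counts, Hnf4g, the paralog of Hnf4a, had 1 and 0, and Nr2e3, a photoreceptor gene, had 0 in both libraries. A count of 0 allows up to 3 counts, or 0.0877 CPM (counts scaled to library size) in library 1 and 0.0834 CPM in library 2. At this depth these genes were not separable from absence, and no ratio is given for them.

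Which transcript led a gene was stable for most members and open for some. Among the 28 members with at least 100 mean counts, the leading transcript was the same in both libraries for 26 in the first quantification and for 23 in the second, and the same in all 4 tables for 18. The leading transcript by mean share was protein-coding for all 28. The other 10 were Nr3c1, Thrb, Rara, Vdr, Rxrb, Pparg, Nr1h2, Nr1h3, Nr2c1 and Nr2f2. For Nr3c1 the transcripts that led in the different tables share a coding length of 792 codons, which held 73.3% and 67.9% of its TPM and 51.9% and 51.6% in the second quantification. For Nr1h3 the leaders share 445 codons, with 62.8% and 93.6%, and 93.0% and 97.9% in the second quantification. For Thrb, whose forms differ at their start, the transcripts of 461 codons held 41.98% and 40.03% and that of 475 codons 33.21% and 27.96%, while the second quantification put 31.5% and 43.2% on a fragment of 375 bases. For Nr3c1 and Nr1h3 the different leaders thus encode products of the same length, and for Thrb and Pparg the shares of single transcripts differed between the quantifications.

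Promoters of the members held receptor hexamers at shares close to those of all promoters. The RefSeq promoter table of GRCm38.p6 matched 37 of the 40 members, with 57 promoters. AGGTCA, on either strand in the 250 bases before the start, was found in 9 of the 57, 15.8%, against 14.02% of all 32851 promoters, in Nr1d2, Nr1h4, Nr6a1, Pparg, Rarg, Rxra, Rxrg and Thrb. Any of the 4 hexamers named above was found in 35.1% of member promoters and 38.6% of all. Direct repeats with 0 to 4 bases between were found in no promoter of a matched member. The AGGTCA of a Pparg promoter lies 9 to 4 bases before the start. It is shown because Pparg is a member that differed between the libraries, with capitals on the hexamer, and it was chosen after those values were seen.
Pparg promoter, chr6:115362323-115362348 of GRCm38.p6, plus strand: atataagggacgcgaggAGGTCAaga
A match describes these letters in this window and draws nothing about a factor.

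Opposite-strand exons of another gene cover part of 11 members, and 10% or more of 4 of them, which are Nr1i3, Nr2f6, Rarb and Nr2c2. Nr2c2 and Nr1d2 were the members whose counts were not whole numbers, within a tolerance of 0.005. Nr2c2 had 31.2% covered by Mrps25, with 604 and 569 counts, and Gm44249, with 2 and 6. Nr1d2 had 0% covered, and the source of the fractions was not tested. Reads were counted on the mm10 reference, which carries the C57BL/6J sequence, and an effect of CAST/EiJ differences on any member was not tested.

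Of the nuclear receptors left out of the set, Nr5a1 had the highest TPM in both libraries. It had 24574 and 24505 counts, a ratio of 0.986, against 2.38 for Ppara and 1.78 for Pparg. Nr4a1, an early-response receptor induced by ACTH and stress, had 5265 and 15175 counts, 2.85-fold higher in library 2. The 3 NR4A genes summed to 104 and 261 TPM and the 4 NR5A and NR0B genes to 269 and 293, against 398 and 474 for the 40 members. The difference between these sets was not tested.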

How the data were processed

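Adrenal RNA of 1 group of 2 libraries was measured. Per the submitters' file list, gene values and 1 set of transcript values came from transcriptome alignments, and another set came from reads matched to a transcript index, on mm10 with GENCODE M21. Per the file headers, the columns carry the names that RSEM and kallisto write. Aligner, versions and settings are not given in the sources used here. Deposited values are the expected count and TPM of genes and transcripts, TPM having a fixed sum with spike-ins included. The authors also deposited each transcript's percent of its gene.

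Rows naming no gene (0.909% and 0.760% of counts) stayed out of scaling. Expected counts were rounded to compute TMM factors (edgeR 4.0.16), 1.02 and 0.981. Log2 ratios of library 2 over library 1 used a prior of 0.5 counts, a 1.5-fold rule and a mean of at least 100 counts. Clopper-Pearson intervals at 95% used scipy 1.17.1. No test between groups was possible. The steps were tested on simulated data. Alternatives were DESeq2 1.42.0 size factors, total counts, ERCC spike-ins, deposited TPM, the second table, other filters and folds, and leaving out a library.

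Members and lists were chosen with earlier results of these data known. Named members were the 12 of highest mean TPM, those past 1.5-fold, those at 0 counts in a library, class leaders, those whose leading transcript differed, and paralogs; of other lists, the 3 of highest TPM and those past 2-fold. P boxes were found in GENCODE M21 coding sequences, promoters are those of RefSeq on GRCm38.p6, and protein sequences were not used here. A result on 1 cofactor is not reported here.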

Additional observations from a re-analysis of the deposited data

How the results depend on the processing

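The number of members at 1 TPM or more in both libraries was 29 and stayed between 27 and 30 in every alternative run, with 29 to 30 when a library was left out. Their summed TPM was 436, ran from 398 to 474 when a library was left out, and was 776 in the second quantification and 1293 when TPM was taken over nuclear protein-coding genes alone. The count past 1.5-fold was 2, and it was 5 with ERCC scaling, 5 with deposited TPM, 6 with a mean of at least 20 counts, 10 with no filter on counts and 1 with a fold of 2; Ppara was past the fold in each of these. It was 3 with DESeq2 size factors and 2 with total counts, the second quantification and an interval past 1. Among all genes the share past 1.5-fold was 5.68% in the main setting, 7.95% with ERCC scaling and 9.26% with deposited TPM. That share was 5.61% with DESeq2 size factors, 6.10% with total counts and 5.79% in the second quantification. For the other filters, the fold of 2 and the interval rule no share of all genes was computed. The median log2 ratio was 0.07, 0.27 with ERCC scaling and 0.26 with deposited TPM, beside medians over all genes of 0.19 and 0.11. Signs differed from the TMM scaling for 3 of the 28 members with total counts (Rxra, Nr1h3 and Nr2c2), 7 with ERCC scaling (Nr3c1, Thra, Rara, Rxrb, Ppard, Nr2f1 and Nr6a1), 4 with deposited TPM (Nr3c1, Thra, Nr1h3 and Nr2f1), 2 with the second quantification (Rxra and Nr2c2) and 0 with DESeq2 size factors or a prior of 2 counts. No member past the fold changed direction in any of these. No paired analysis was possible because there is 1 group. Counts under 100 limit what can be said of 12 members.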
